A study of Mus musculus with 12 samples.

Results

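The data cover 7 genes that encode surface or secreted ligands read by T cells, natural killer cells and phagocytes: Cd274, Cd276, Pvr, Nectin2, Lgals9, Icam1 and Cd47. They were taken by gene symbol, and 7 of 7 were found among the 15002 genes of the tables. RNA had been sequenced from IEC4.1 cells, a line from newborn mouse that is labelled as intestinal epithelium, in 4 groups of 3 libraries. For 24 h, cells had been transfected with scrambled siRNA, named siR_Ctrl, or with 3 pooled siRNAs that target the long noncoding RNA Nostrill, named siR_Nostrill. From each arm, one set of cells was exposed to IFN-γ at 1 ng/ml for 4 h (siR_Ctrl + IFN-γ and siR_Nostrill + IFN-γ) and the other was not, although the labels give 24 h for every library. All groups were transfected, and all come from this 1 line. The Nostrill transcript was not analysed here, so the labels could not be checked against the gene that was targeted. The study asked whether Nostrill takes part in the transcription of genes that IFN-γ induces.

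Checkpoint ligands are proteins on the surface of a tissue cell that raise or lower the activity of an immune cell touching it. IFN-γ, a cytokine made by T cells and natural killer cells, acts through JAK kinases and through transcription factors that bind the gamma-activated site or, as those of the Irf family do, the interferon-stimulated response element (ISRE) in DNA. In the gut, these ligands are part of what sets whether lymphocytes in and below the epithelium tolerate or attack its cells. Cd274 encodes PD-L1, the main ligand of the T cell inhibitory receptor PD-1. Cd276 encodes B7-H3, a relative of PD-L1 whose receptor is less well settled. Pvr (CD155) and Nectin2 (CD112) are nectin-family adhesion molecules that bind the inhibitory receptor Tigit and the activating receptor Cd226 on lymphocytes. Lgals9 encodes galectin-9, a sugar-binding protein and a ligand of the receptor Havcr2. Icam1 is the adhesion ligand of the leukocyte integrin LFA-1. Cd47 binds Sirpa on phagocytes and restrains engulfment.

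In the annotation columns of the tables, 6 of the 7 members (not Lgals9) carried an immunoglobulin-like domain, a term held by 273 genes in all. The V-set form of that domain was listed by Pfam for Cd274, Cd276, Pvr and Nectin2. Cd274, Cd276, Pvr, Nectin2 and Icam1 were placed in the KEGG pathway of cell adhesion molecules, which held 111 genes. In RefSeq on GRCm38.p6, Cd274 (gene ID 60533) lies at chr19:29362107-29388095 and Cd276 (102657) at chr9:58524300-58555033. Nectin2 (19294) at chr7:19716644-19749573 and Pvr (52118) at chr7:19903578-19921143 lie on the same chromosome. Lgals9 (16859) is at chr11:78962979-78984924, Icam1 (15894) at chr9:21015940-21028814 and Cd47 (16423) at chr16:49851328-49912503. Exons of Cd274, Cd276, Nectin2 and Icam1 overlap an annotated transcript on the opposite strand. The sources used here do not say whether reads were counted by strand, so for these 4 genes the reads of both strands cannot be told apart.

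Promoter sequences were looked up in RefSeq (GRCm38.p6) for all members, and 6 of 7 matched. The stretch examined ran from 250 bases before the annotated start to 30 bases after it, 280 bases in all. For Cd276, Nectin2, Lgals9 and Icam1 this start is the outer boundary of the gene interval given above. For Cd274 it is the start of a transcript at 29367438, which lies 5331 bases inside that boundary, and for Cd47 the 2 starts listed lie 4326 and 4333 bases inside it, so the outermost starts of these 2 genes were not searched. Both strands were searched for the gamma-activated site written as TTCNNNGAA, the ISRE core written as GAAA, any 2 bases and GAAA, and the TATA box written as TATAAA. Among 32851 promoters of that length, 7.83% held the first motif, 3.28% the ISRE core and 13.1% the TATA box. Shown here are Cd274, the member with the largest response to IFN-γ, and the members whose stretch held a match, Lgals9 and Icam1. Capitals mark the matches.
Cd274: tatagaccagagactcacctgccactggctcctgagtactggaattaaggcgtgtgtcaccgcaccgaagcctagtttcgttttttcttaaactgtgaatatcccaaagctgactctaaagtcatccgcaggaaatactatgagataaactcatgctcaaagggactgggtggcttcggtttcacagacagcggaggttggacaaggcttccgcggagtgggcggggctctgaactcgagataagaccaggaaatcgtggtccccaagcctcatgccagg
Lgals9: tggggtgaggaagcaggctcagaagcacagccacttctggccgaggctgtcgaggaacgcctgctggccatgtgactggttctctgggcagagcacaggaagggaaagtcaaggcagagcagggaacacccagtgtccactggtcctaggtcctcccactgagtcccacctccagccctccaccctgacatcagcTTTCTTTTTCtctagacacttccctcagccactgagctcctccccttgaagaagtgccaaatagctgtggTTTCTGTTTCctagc
Icam1: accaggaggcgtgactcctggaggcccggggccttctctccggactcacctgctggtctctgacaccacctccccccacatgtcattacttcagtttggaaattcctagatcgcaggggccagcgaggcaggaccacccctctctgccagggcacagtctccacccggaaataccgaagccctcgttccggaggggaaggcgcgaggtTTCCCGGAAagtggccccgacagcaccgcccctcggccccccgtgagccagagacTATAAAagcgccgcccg
The Cd274 stretch is at chr19:29367188-29367467 on the plus strand, Lgals9 at chr11:78984895-78985174 on the minus strand and Icam1 at chr9:21015690-21015969 on the plus strand. The Lgals9 stretch held 2 ISRE cores, both on the antisense strand, with their first printed bases 55 bases before the start and at base 16 of the transcript. The Icam1 stretch held a gamma-activated site 42 bases before the start and a TATA box at base 14 of the transcript. At that site the pattern TTCNNNGAA is matched on both strands. No match to these letters was found in the stretches of Cd274, Cd276, Nectin2 and Cd47. A match is a description of the letters and was not tested as a binding site.

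The libraries held 17824307 to 19093191 reads on genes (median 18153495), and 11900 genes passed the filter on low counts. Of the 7 members, 6 passed it and Icam1 did not. Levels are given as FPKM, the authors' reads per kilobase of transcript, scaled to the mapped reads of the library. The ratio of FPKM to TPM, which moves with the length of the transcripts a library holds, ran from 0.571 in siR_Ctrl replicate 1 to 0.795 in siR_Ctrl + IFN-γ replicate 2, so some ranges are also given on the TPM scale. The effective length of the members ran from 1260 bases for Lgals9 to 3415 bases for Cd274. The labelled cell type was checked against marker lists. Of 18 epithelial markers, 10 were measured, and only Tjp1 (median 8.63 FPKM) and Krt19 (1.56 FPKM) reached a median of 1 FPKM, while Krt8 stood at 0.18, Krt18 at 0.05, Vil1 at 0.03 and Cdx2 at 0. Of 12 stromal or endothelial markers, 11 were measured and 8 reached it, led by Vim (median 1679 FPKM), Col1a1 (215.8 FPKM) and Col1a2 (156.0 FPKM). Of 15 leukocyte markers, 7 were measured and Cd68 alone reached it (1.42 FPKM), with Ptprc at 0. Most epithelial markers measured were thus near 0 in cells labelled as epithelium, and the genes are described here by name and not as markers of that cell type. The summed FPKM of the stromal list ran from 2217 to 2435 in siR_Ctrl, from 2563 to 2671 in siR_Ctrl + IFN-γ, from 2127 to 2334 in siR_Nostrill and from 2268 to 2408 in siR_Nostrill + IFN-γ libraries. That of the epithelial list ran from 7.57 to 17.8 and that of the leukocyte list from 1.35 to 2.56 over the 12 libraries, and the part of any of these lists in the results was not tested.

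Cd47 and Nectin2 were the most abundant members per length, and Icam1 was close to undetected. Over the 12 libraries, Cd47 ran from 50.0 to 86.8 FPKM, between the 86.1st and the 92.0th percentile of all genes of its library. Nectin2 ran from 35.8 to 52.5 FPKM. Lgals9 (18.1 to 33.2 FPKM), Cd276 (15.1 to 28.1 FPKM) and Pvr (9.99 to 16.0 FPKM) held a middle place. Cd274 ran from 0.48 to 32.7 FPKM, which moved it from the 26.0th to the 79.5th percentile. Icam1 lay between 0.05 and 0.24 FPKM. Without IFN-γ, Cd274 made up 0.402% ± 0.072 (SD, n = 3) of the summed FPKM of the 7 members in siR_Ctrl cells and 0.381% ± 0.0082 (n = 3) in siR_Nostrill cells. With IFN-γ its share was 11.7% ± 2.2 (n = 3) in siR_Ctrl cells and 13.3% ± 0.96 (n = 3) in siR_Nostrill cells. Cd47 held from 34.5% to 37.1% of that sum in the 4 group means. Cd274 was thus the scarcest of the 6 tested members in resting cells and stood above Cd276 and Pvr in mean FPKM once IFN-γ was present.

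**Figure D1:**
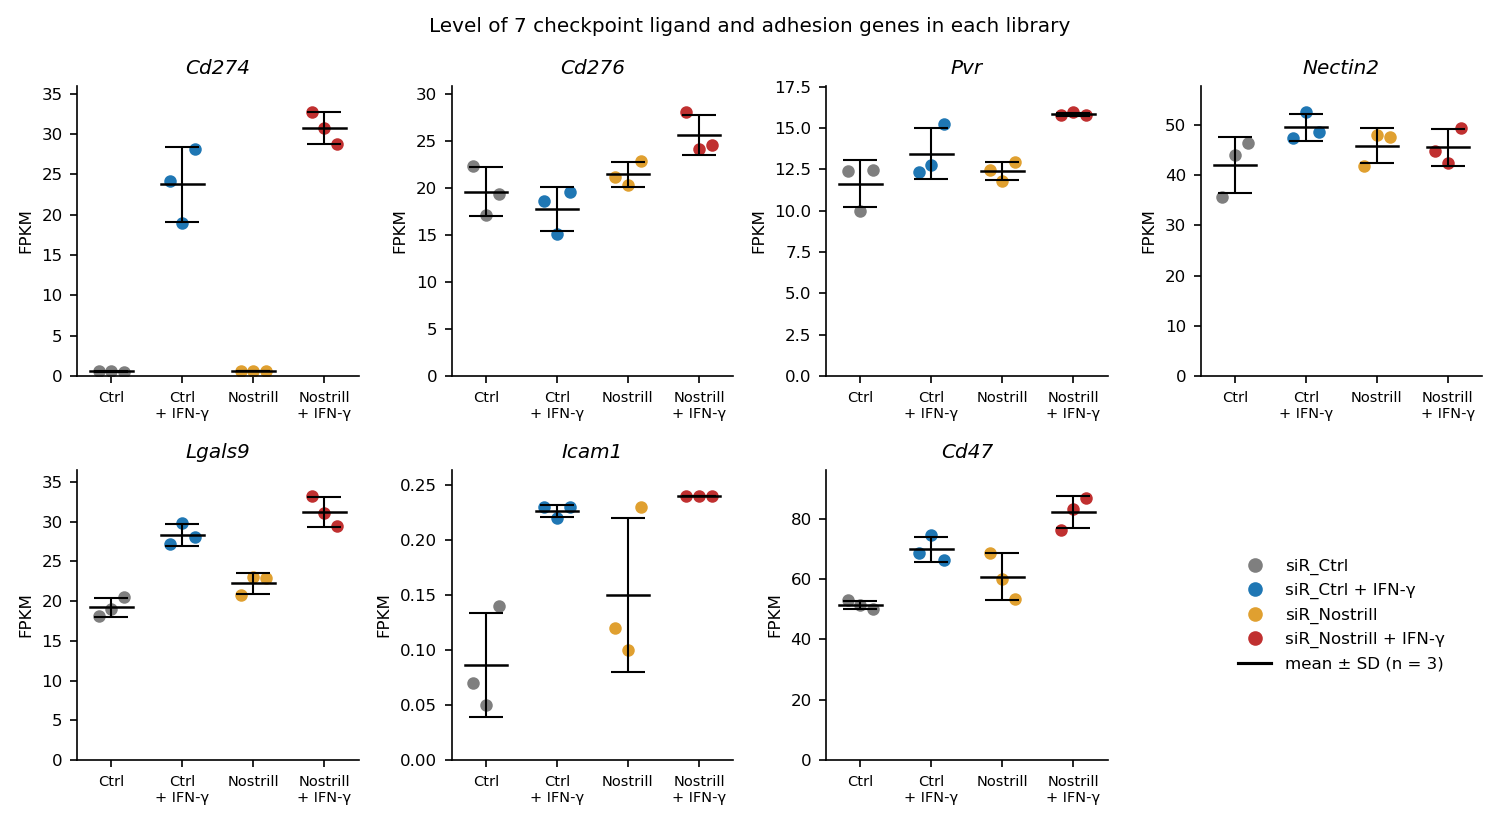
Level in FPKM (vertical axis, linear from 0, a scale of its own in each panel) of the 7 genes in the 12 libraries, by group; points are libraries in replicate order and black bars the mean ± SD of 3. Cd274 sits at or below 0.65 FPKM in the 6 libraries without IFN-γ and at or above 18.9 FPKM in the 6 libraries with it, and Cd276 is highest in siR_Nostrill + IFN-γ cells.

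The first comparison asked which members respond to IFN-γ in cells with the control siRNA. Cd274, Lgals9 and Cd47 rose, and no member fell. Cd274 rose about 42.4-fold, Lgals9 1.55-fold and Cd47 1.44-fold in edgeR's fit. Of the 6 members tested, 3 passed an adjusted p of 0.05 by edgeR (quasi-likelihood, adjusted after Benjamini and Hochberg over 11900 genes), all of them higher, beside 5.45% of all 11900 genes in either direction and 4.71% higher. At an unadjusted p under 0.05, 5 of 6 were higher, beside 8.61% of all genes. The FPKM ranges of 4 of 6 lay fully above those without IFN-γ, beside 7.5% of all genes. Of the tested members, Cd274, Lgals9 and Cd47 were also apart on the TPM scale. No share of all genes was counted on that scale, which moved their median log2 fold change by -0.15. The median log2 fold change of the 6 was 0.41, beside -0.01 over all genes tested. A change in these totals can be a change in RNA per cell or in the share of cells that hold it, and the 2 cannot be told apart in bulk RNA.

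Cd274 stood at 0.65, 0.61 and 0.48 FPKM in the siR_Ctrl libraries (30 to 40 reads each). It stood at 24.1, 18.9 and 28.2 FPKM in the siR_Ctrl + IFN-γ libraries (1232 to 1807 reads). The groups were far apart, with every library given IFN-γ above every library without it. The log2 fold change was 5.40 (SE 0.14, edgeR adjusted p = 5.55e-10). This call held in each of the 12 fits that left out 1 library and in each of 11 other settings. The 3 genes whose log2(FPKM + 1) followed Cd274 most closely over the 12 libraries, of 10498 compared, were Gbp7 (Pearson r = 0.999), Nlrc5 (0.999) and Irgm1 (0.998). Gbp7 and Irgm1 encode interferon-inducible GTPases, and Nlrc5 is the activator of MHC class I genes. These points are the same 12 libraries and hold both a change with IFN-γ and the spread between libraries, so the coefficients describe these libraries and carry no p.

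Lgals9 read 18.1, 19.0 and 20.5 FPKM in siR_Ctrl cells and 27.2, 29.8 and 28.1 FPKM in siR_Ctrl + IFN-γ cells. The 2 groups did not overlap on the FPKM or the TPM scale. Its log2 fold change was 0.63 (SE 0.10, edgeR adjusted p = 0.00235), and all 12 fits without 1 library kept the call. The call was lost when only the 2 groups were fitted (adjusted p = 0.0582) and in limma on log2(TPM + 1) (adjusted p = 0.0775). The genes nearest to Lgals9 were St6galnac4 (r = 0.970), Ifit1 (0.969) and Ube2l6 (0.968). Ifit1 and Ube2l6 are interferon-stimulated genes, the latter encoding the E2 enzyme of the ubiquitin-like modifier Isg15. The promoter stretch of Lgals9, printed above, held the ISRE cores, while the stretches searched for Cd274 and Cd47 held no match. A link between these letters and the response was not tested.

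Cd47 read 53.0, 51.3 and 50.0 FPKM in siR_Ctrl cells and 68.8, 74.6 and 66.5 FPKM in siR_Ctrl + IFN-γ cells. Here too each library with IFN-γ was above each library without it. This was a log2 fold change of 0.53 (SE 0.12, edgeR adjusted p = 0.0216). The call was kept in 8 of 12 fits without 1 library and lost without siR_Ctrl replicate 2 (adjusted p = 0.0517) or 3 (0.0929) and without siR_Ctrl + IFN-γ replicate 1 (0.0509) or 2 (0.0712). It was lost as well when only the 2 groups were fitted (0.0615) and on the TPM scale (0.187). Plvap (r = 0.967), Btg1 (0.959) and Ly6e (0.958) were the genes nearest to Cd47.

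In the reported edgeR fit, the 2 nectin-family members and Cd276 did not pass the threshold in these cells. With the length trend removed, Pvr (adjusted p = 0.0281) and Nectin2 (0.0479) passed, beside 11.1% of all genes, and Cd276 did not (0.809). Pvr read 12.4, 9.99 and 12.5 FPKM without IFN-γ and 12.4, 12.8 and 15.2 FPKM with it. The ranges overlapped, and its log2 fold change of 0.28 (95% interval 0.08 to 0.48) had an adjusted p of 0.143 in edgeR. Nectin2 read 35.8, 44.0 and 46.4 FPKM without IFN-γ and 47.4, 52.5 and 48.6 FPKM with it. Its FPKM ranges were apart but its TPM ranges overlapped, and the log2 fold change was 0.29 (95% interval 0.02 to 0.56, edgeR adjusted p = 0.297). Without siR_Ctrl replicate 1, its lowest library, that value was 0.17 (adjusted p = 0.656). Cd276 read 22.3, 17.2 and 19.4 FPKM without IFN-γ and 18.7, 15.1 and 19.6 FPKM with it. Its ranges overlapped, with a log2 fold change of -0.08 (95% interval -0.28 to 0.13, edgeR adjusted p = 0.767), and the value ran from -0.13 to -0.00063 with 1 library left out.

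Icam1 is listed last because its depth allows little. The siR_Ctrl libraries held 3, 2 and 6 reads of it (0.07, 0.05 and 0.14 FPKM), and each siR_Ctrl + IFN-γ library held 10 reads (0.23, 0.22 and 0.23 FPKM). The siR_Nostrill libraries held 5, 4 and 10 reads (0.12, 0.10 and 0.23 FPKM), and each siR_Nostrill + IFN-γ library again held 10 reads (0.24 FPKM in all 3). The libraries with IFN-γ were above all siR_Ctrl libraries, and siR_Nostrill replicate 3 had as many reads as they did. With no filter on low counts, edgeR gave a log2 fold change of 1.43 (SE 0.43) for IFN-γ in siR_Ctrl cells (unadjusted p = 0.00578, adjusted p = 0.110). A call was reached in limma on log2(FPKM + 1) over all genes (adjusted p = 0.0463) and in edgeR without siR_Ctrl replicate 3 (adjusted p = 0.0356), and DESeq2 gave an adjusted p of 0.170. At 2 to 10 reads a library, a response of Icam1 was not resolved at this depth. The printed promoter stretch of Icam1 held a gamma-activated site, and a link between that site and these reads was not tested.

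**Figure D2:**
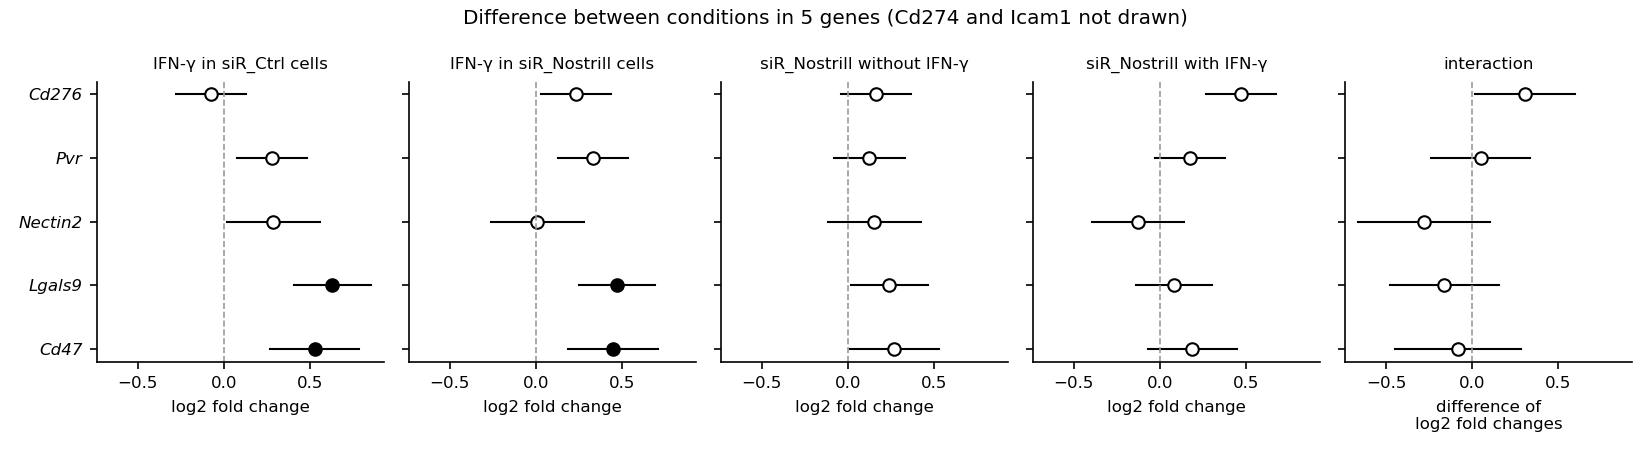
Log2 fold change (horizontal axis) with its 95% interval from edgeR for 5 genes in the 4 comparisons and the interaction, the difference of the IFN-γ effects; filled points passed an adjusted p of 0.05. Lgals9 and Cd47 pass for IFN-γ with either siRNA, no point passes between siRNAs, and Cd276 lies farthest from 0 for siR_Nostrill with IFN-γ; Cd274 (5.40 and 5.61 for IFN-γ) and Icam1, which was not tested, are not drawn.

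The second comparison asked the same in cells with the Nostrill siRNAs. Cd274 rose 48.7-fold, Lgals9 1.39-fold and Cd47 1.36-fold, and no member fell. These are the 3 members called in siR_Ctrl cells. They were 3 of 6 members at an adjusted p of 0.05 in edgeR, all higher, beside 6.78% of all genes in either direction and 5.24% higher. At an unadjusted p under 0.05, 5 of 6 were higher, beside 11.7% of all genes. The FPKM ranges of 5 of 6 lay above those without IFN-γ, beside 16.3% of all genes. On the TPM scale those of Cd274, Cd276, Pvr, Lgals9 and Cd47 did. The share of all genes was not counted on the TPM scale, which moved their median log2 fold change by 0.16. The median log2 fold change was 0.39, beside -0.00056 over all genes. DESeq2, the tool that the study names for its own tests, called 4 of 7, adding Pvr, beside 10.5% of all genes, while in siR_Ctrl cells it called the same 3 as edgeR of 7, beside 6.47%. The 7 include Icam1, which the filter on low counts had left out of the reported edgeR fit.

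Cd274 stood at 0.64, 0.61 and 0.62 FPKM in siR_Nostrill cells and at 32.7, 30.7 and 28.8 FPKM in siR_Nostrill + IFN-γ cells. The groups were far apart, and all siR_Nostrill + IFN-γ libraries were above the highest siR_Ctrl + IFN-γ library on the FPKM scale. The log2 fold change was 5.61 (SE 0.14, edgeR adjusted p = 4.34e-10). Lgals9 read 20.7, 22.99 and 22.97 FPKM without IFN-γ and 33.2, 31.1 and 29.5 FPKM with it. It did not overlap between the groups, with a log2 fold change of 0.47 (SE 0.10, edgeR adjusted p = 0.0155), and 8 of 12 fits without 1 library kept the call. Leaving out siR_Nostrill replicate 1 (adjusted p = 0.0599) or 3 (0.0558) lost the call, as did leaving out replicate 1 (0.0701) or 2 (0.0561) of siR_Nostrill + IFN-γ.

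Cd47 read 68.8, 60.2 and 53.3 FPKM in siR_Nostrill cells, the widest spread of this gene in any group, and 76.4, 83.4 and 86.8 FPKM in siR_Nostrill + IFN-γ cells. The groups did not overlap. In edgeR the log2 fold change was 0.45 (SE 0.12, edgeR adjusted p = 0.0446). Of the 6 calls over both IFN-γ comparisons it had the highest adjusted p, and it was kept in 4 of 12 fits without 1 library, with adjusted p from 0.0219 to 0.135 over them. It was also lost with no filter on low counts (adjusted p = 0.0507). The call was lost on leaving out any one of siR_Ctrl replicates 2 and 3, siR_Ctrl + IFN-γ replicate 1, siR_Nostrill replicates 2 and 3 and siR_Nostrill + IFN-γ replicates 1, 2 and 3.

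Pvr read 12.5, 11.8 and 12.9 FPKM in siR_Nostrill cells and 15.8, 16.0 and 15.8 FPKM in siR_Nostrill + IFN-γ cells. The groups did not overlap, and the 3 libraries with IFN-γ were within 0.16 FPKM of each other. Its log2 fold change of 0.33 (95% interval 0.13 to 0.53) was just short of the threshold in edgeR (adjusted p = 0.0566), and it passed in DESeq2 (adjusted p = 0.0136), when only the 2 groups were fitted (0.0211), with the length trend removed (0.00983) and without siR_Ctrl replicate 1 (0.0488) or 2 (0.0472). Cd276 read 21.2, 20.4 and 22.96 FPKM without IFN-γ and 28.1, 24.2 and 24.7 FPKM with it. Its ranges were apart on both scales, with a log2 fold change of 0.23 (95% interval 0.03 to 0.44, edgeR adjusted p = 0.176), and it passed in 1 setting, the removal of the length trend (adjusted p = 0.0460, beside 19.0% of all genes). Nectin2 read 41.9, 48.1 and 47.6 FPKM without IFN-γ and 44.7, 42.3 and 49.5 FPKM with it. Its groups overlapped, with a log2 fold change of 0.01 (95% interval -0.26 to 0.28, edgeR adjusted p = 0.971).

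The other genes around these ligands were followed in lists of relatives, receptors and processing enzymes. Among other ligands of lymphocyte receptors, 20 of 33 were measured and 12 tested. In siR_Ctrl cells 2 of the 12 rose with IFN-γ, beside 4.71% of all genes, with none lower, and the median log2 fold change was 0.30, beside -0.01. H2-T23, the non-classical MHC molecule seen by the inhibitory receptor NKG2A, stood at 38.7 ± 8.6 FPKM without and 130.9 ± 20.9 FPKM with IFN-γ (SD, n = 3), a log2 fold change of 1.83 (SE 0.21, edgeR adjusted p = 1.57e-04). Tnfrsf14, the ligand of Btla that is also called HVEM, rose by 2.10 on the log2 scale (SE 0.28, edgeR adjusted p = 5.10e-04), but its level was low (0.18 to 1.55 FPKM over the 12 libraries), and it is named after its values were seen. In siR_Nostrill cells 3 of 12 rose, beside 5.24% of all genes. They were H2-T23 (log2 fold change 0.97, edgeR adjusted p = 0.0147), Tnfrsf14 (2.19, 3.96e-04) and Igsf11 (1.41, 0.0292), the last a ligand of the inhibitory receptor Vsir at 0.14 to 0.66 FPKM and likewise named after its values were seen. For H2-T23 the response in siR_Nostrill cells was smaller by 0.86 on the log2 scale, which did not pass (interaction -0.86, SE 0.29, edgeR adjusted p = 0.430). Its level there was 61.0 ± 4.8 FPKM without and 120.95 ± 14.3 FPKM with IFN-γ (SD, n = 3). Between the siRNAs its log2 fold change was 0.68 without IFN-γ (edgeR adjusted p = 0.230) and -0.18 with it (0.744).

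Of 10 other adhesion ligands for leukocytes tested (15 of 19 measured), 1 rose with IFN-γ with either siRNA, beside 4.71% of all genes in siR_Ctrl and 5.24% in siR_Nostrill cells. It was Vcam1, the ligand of the integrin VLA-4, with a log2 fold change of 0.36 (SE 0.080, edgeR adjusted p = 0.0224) in siR_Ctrl and 0.56 (SE 0.081, 0.00101) in siR_Nostrill cells. Vcam1, at 51.1 to 88.4 FPKM, was far more abundant than Icam1. Of 3 other galectins tested, 1 rose with either siRNA, beside the same shares of all genes: Lgals8, at 0.54 (SE 0.11, edgeR adjusted p = 0.00967) and 0.57 (SE 0.11, 0.00627) on the log2 scale, while Lgals1 (median 5070 FPKM) and Lgals3 (475 FPKM) did not pass.

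None of 4 other nectins and nectin-like molecules, 2 ligands of the natural killer receptor NKG2D, 4 receptors for the members and 10 genes for their processing passed in either IFN-γ comparison in edgeR or in DESeq2. At an unadjusted p under 0.05 in edgeR, 3 of the 4 other nectins were lower in siR_Ctrl cells, beside 6.03% of all genes, and none in siR_Nostrill cells. Of the 10 processing genes 2 were higher in siR_Nostrill cells, a share near the 11.7% of all genes, and 0 of the NKG2D ligands and receptors moved either way. Cmtm6, which keeps PD-L1 at the surface, had a log2 fold change of 0.08 in siR_Ctrl cells (edgeR adjusted p = 0.811). In siR_Nostrill cells its value was 0.28 (edgeR unadjusted p = 0.0397, adjusted p = 0.206), and it is among the 2 processing genes counted there. Qpctl, which modifies Cd47 at its binding site for Sirpa, had 0.05 in siR_Ctrl (edgeR adjusted p = 0.880) and 0.0044 in siR_Nostrill cells (0.971). Both are named for their role, with their values known.

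The list of IFN-γ and NF-κB signalling genes checks the stimulus. Of its 19 genes, all tested, 7 rose in siR_Ctrl (4.71% of all genes) and 9 in siR_Nostrill cells (5.24%), and none fell. Irf1 rose by 3.57 and 3.23 on the log2 scale (edgeR adjusted p = 8.50e-10 and 2.02e-09), Stat2 by 3.18 and 2.91 (3.11e-09 and 6.19e-09), Socs1, an inhibitor of JAK kinases, by 2.999 and 2.91 (1.22e-07 and 1.78e-07) and its relative Socs3 by 2.47 and 2.19 (6.16e-09 and 1.49e-08). The log2 fold change of Cd274 was above those of these 4 genes, and those of Lgals9 and Cd47 were well below them.

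**Figure D3:**
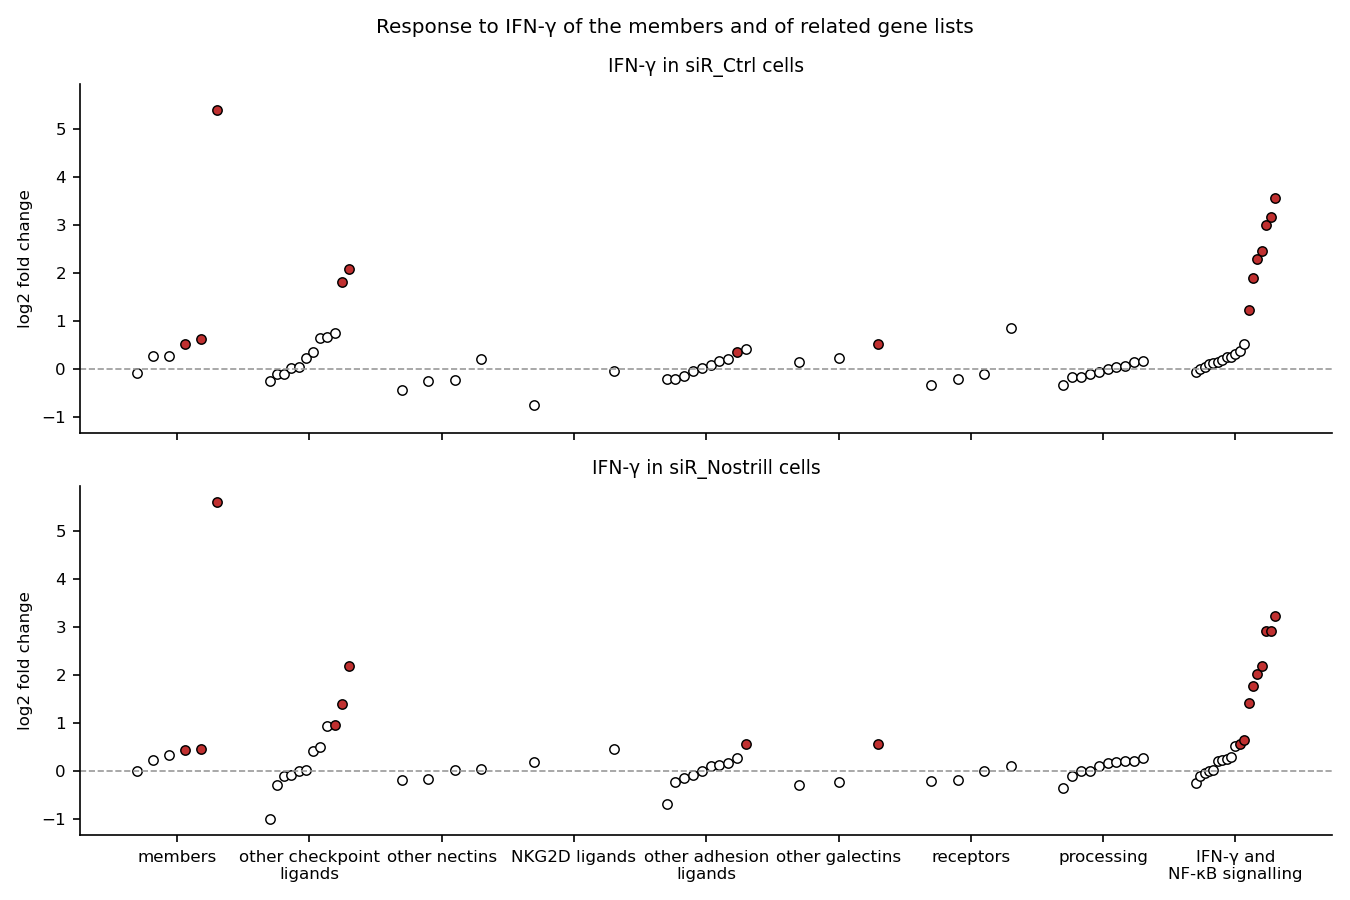
Log2 fold change with IFN-γ (vertical axis) of the tested genes among the members and in 8 related lists, in siR_Ctrl cells (top) and siR_Nostrill cells (bottom); each point is a gene, red where its edgeR adjusted p was under 0.05. Cd274 is the topmost point of both panels (5.40 and 5.61), while Lgals9 and Cd47 lie between 0.45 and 0.63.

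The third comparison asked whether Nostrill siRNAs change the members in resting cells. No member was called. The 6 log2 fold changes ran from 0.12 to 0.27, all above 0 in edgeR's fit, but in limma on log2(TPM + 1) those of Cd274, Cd276, Pvr and Nectin2 were below 0. The median was 0.16, beside 0.01 over all genes. In edgeR 0 of 6 passed, beside 0.218% of all genes, and DESeq2 also called 0 of the 6 with an adjusted p, beside 2.35%. At an unadjusted p under 0.05, Lgals9 and Cd47 were higher (2 of 6), beside 6.19% of all genes. The FPKM ranges of these 2 genes lay above siR_Ctrl, beside 10.2% of all genes. Their TPM ranges overlapped, as did those of the other tested members. The share of all genes was not counted on the TPM scale, which moved their median log2 fold change by -0.17.

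Cd47 had the largest difference, with a log2 fold change of 0.27 (95% interval 0.01 to 0.53, edgeR adjusted p = 0.357), from 51.4 ± 1.5 to 60.8 ± 7.8 FPKM (SD, n = 3). It ran from 0.17 without siR_Nostrill replicate 1 to 0.38 without siR_Nostrill replicate 3, and was 0.076 on the log2(TPM + 1) scale. Lgals9 had 0.24 (95% interval 0.02 to 0.46, edgeR adjusted p = 0.350), from 19.2 ± 1.2 to 22.2 ± 1.3 FPKM (n = 3). Both lay above siR_Ctrl in each library on the FPKM scale but not on the TPM scale. Cd276 had 0.16 (-0.04 to 0.37), Nectin2 0.15 (-0.12 to 0.42), Pvr 0.13 (-0.08 to 0.33) and Cd274 0.12 (-0.24 to 0.47) as log2 fold change with its 95% interval, with edgeR adjusted p from 0.398 to 0.720. For these 4 genes the ranges overlapped. With 1 library left out, the value ran from 0.0026 to 0.18 for Cd274, from 0.032 to 0.22 for Nectin2, from 0.060 to 0.18 for Pvr and from 0.11 to 0.24 for Cd276.

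The fourth comparison set siR_Nostrill + IFN-γ against siR_Ctrl + IFN-γ cells. Again no member was called in edgeR (0 of 6, beside 0.429% of all genes), and Cd276 came closest. At an unadjusted p under 0.05, Cd276 and Cd274 were higher (2 of 6), beside 6.87% of all genes. The FPKM ranges of Cd274, Cd276, Pvr and Cd47 lay above siR_Ctrl + IFN-γ (4 of 6), beside 14.6% of all genes. On the TPM scale those of Cd276 and Cd47 did. The share of all genes was not counted on the TPM scale, which moved their median log2 fold change by 0.14. The median log2 fold change was 0.18, beside -0.0026 over all genes.

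Cd276 stood at 17.8 ± 2.4 FPKM in siR_Ctrl + IFN-γ and at 25.6 ± 2.1 FPKM in siR_Nostrill + IFN-γ cells (SD, n = 3). Its lowest siR_Nostrill + IFN-γ library, at 24.2 FPKM, was above its highest library in any other group, at 22.96 FPKM, although on the TPM scale siR_Ctrl replicate 1 lay at 39.1 TPM, within the 35.3 to 43.4 TPM of siR_Nostrill + IFN-γ. Its log2 fold change was 0.47 (SE 0.093, 95% interval 0.27 to 0.68, unadjusted p = 3.47e-04, edgeR adjusted p = 0.0583). DESeq2 called it (adjusted p = 3.44e-04), the 1 member that DESeq2 called of the 6 with an adjusted p, beside 5.65% of all genes. It was also called with a mean of at least 5 CPM as the filter (0.0480), with the length trend removed (0.00193, beside 12.9% of all genes) and without siR_Ctrl replicate 1 (0.0404), and the adjusted p over all settings ran from 3.44e-04 to 0.251. Within the groups Cd276 was lowest in siR_Ctrl replicate 2, siR_Ctrl + IFN-γ replicate 2 and siR_Nostrill replicate 2, each the library of its group with the highest FPKM to TPM ratio (0.735, 0.795 and 0.785), and in siR_Nostrill + IFN-γ replicate 2, whose ratio of 0.660 was not the highest of its group (0.698). A link between that ratio and Cd276 was not tested. In the fit with the length trend removed, the difference between the siRNAs with IFN-γ was 0.45 on the log2 scale. Tm7sf3 (r = 0.964), Ppt1 (0.963) and Actr2 (0.963) were the genes nearest to Cd276 over the 12 libraries.

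Cd274 stood at 23.8 ± 4.6 FPKM in siR_Ctrl + IFN-γ and 30.7 ± 1.9 FPKM in siR_Nostrill + IFN-γ cells (SD, n = 3). The FPKM ranges were apart and the TPM ranges overlapped. The log2 fold change was 0.32 (95% interval 0.08 to 0.56, unadjusted p = 0.0139, edgeR adjusted p = 0.196). It passed in 1 setting, the removal of the length trend (adjusted p = 0.0194). Cd47 differed by 0.19 (95% interval -0.07 to 0.45), Pvr by 0.18 (-0.03 to 0.38), Lgals9 by 0.08 (-0.14 to 0.30) and Nectin2 by -0.13 (-0.40 to 0.14) on the log2 scale, with edgeR adjusted p from 0.414 to 0.768. With 1 library left out, these values ran from 0.12 to 0.28, from 0.11 to 0.24, from 0.036 to 0.17 and from -0.21 to -0.042 in the same order. Pvr was nearest to Nlgn2 (r = 0.945), Slc6a9 (0.943) and Plekha2 (0.942) over the libraries, and Nectin2 to Smim19 (0.886), Psmd3 (0.886) and Gmppb (0.884).

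**Figure D4:**
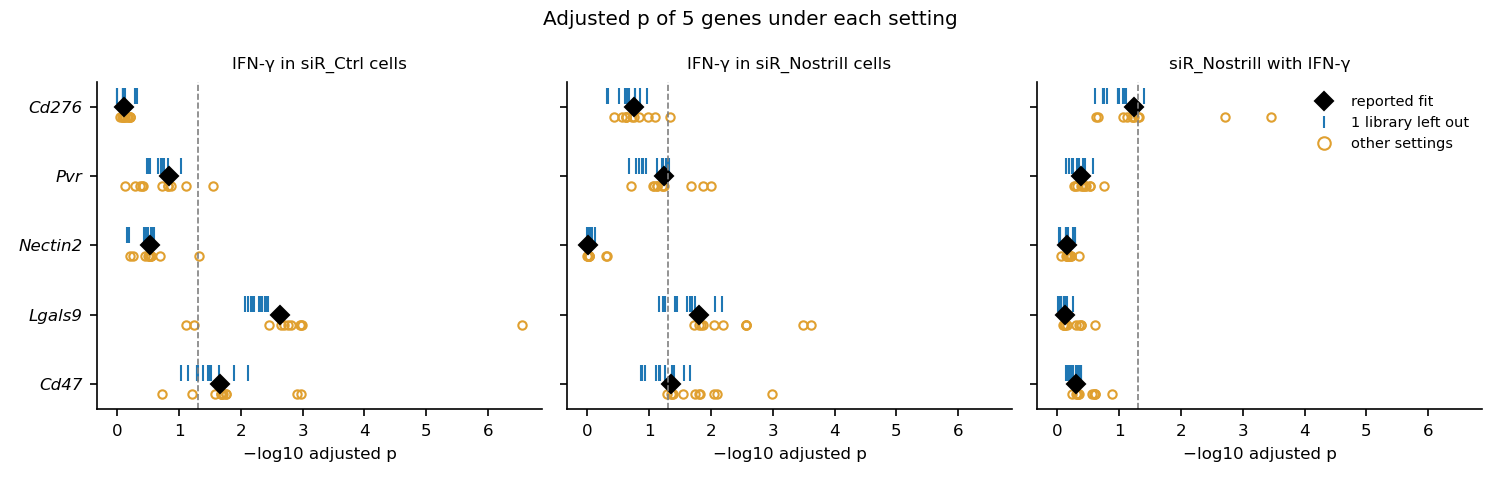
Evidence for a difference, as −log10 of the adjusted p (horizontal axis; dashed line at 0.05), of 5 genes in 3 comparisons under the reported fit (diamond), with 1 library left out (ticks) and in other settings (circles). In siR_Ctrl cells Lgals9 stays past the line in every tick while Cd47 falls on both sides of it, and in the panel of siR_Nostrill with IFN-γ the diamond of Cd276 lies just short of the line (adjusted p = 0.0583).

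Other checkpoint ligands set beside these held 1 call of 12 tested between the siRNAs with IFN-γ, beside 0.429% of all genes. At an unadjusted p under 0.05 in edgeR, 1 of the 12 was higher (6.87% of all genes) and 1 lower (7.67%). The lower was Cd40, at 0.25 to 0.64 FPKM over the 12 libraries, with a log2 fold change of -1.17 (SE 0.28, edgeR adjusted p = 0.0899). The called gene was Tnfsf9, the ligand of the co-stimulatory receptor 4-1BB, at 15.5 ± 1.6 FPKM in siR_Ctrl + IFN-γ and 23.1 ± 0.60 FPKM in siR_Nostrill + IFN-γ cells (SD, n = 3). This was a log2 fold change of 0.52 (SE 0.096, edgeR adjusted p = 0.0468). Without IFN-γ Tnfsf9 stood at 17.4 ± 1.2 FPKM in siR_Ctrl and 22.3 ± 1.5 FPKM in siR_Nostrill cells (SD, n = 3). The log2 fold change there was 0.40 (unadjusted p = 0.00157, edgeR adjusted p = 0.155), and the interaction was 0.13 (adjusted p = 0.586). Cd40 and Tnfsf9 are named after their values were seen. In the signalling list Ifngr2, a chain of the IFN-γ receptor, was called higher in the same comparison (0.54, adjusted p = 0.0375) and Irf9 was called higher without IFN-γ (0.58, adjusted p = 0.0358), both likewise named after their values were seen. Of the 10 processing genes 0 passed between the siRNAs with IFN-γ in edgeR (0.429% of all genes) and 2 in DESeq2 (5.65% of all genes). At an unadjusted p under 0.05, 5 were higher (6.87% of all genes), among them Cmtm6 (log2 fold change 0.47, edgeR adjusted p = 0.106) and Qpctl (0.45, 0.114). Without IFN-γ Cmtm6 had 0.26 (edgeR adjusted p = 0.359) and Qpctl 0.49 (0.160). Of the 10 other adhesion ligands 0 passed in edgeR and 2 in DESeq2 between the siRNAs with IFN-γ, beside the same shares of all genes. At an unadjusted p under 0.05, 3 were higher (6.87% of all genes) and 1 lower (7.67%). Cd34 (0.45, edgeR adjusted p = 0.0651), Cd44 (0.42, 0.0583) and Vcam1 (0.22, 0.225) were higher, and Jam3 (-0.24, 0.336) was lower. Irf1 had a log2 fold change of -0.15 with IFN-γ (edgeR adjusted p = 0.495).

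The last comparison tested whether the response to IFN-γ differed between the siRNAs, as the interaction in the same fit. No member and no other gene passed (0 of 6 members beside 0.0% of all genes in edgeR, and 0 of 7 beside 0.0% in DESeq2). At an unadjusted p under 0.05, 1 of 6 members was higher, beside 4.72% of all genes in edgeR. That member was Cd276, whose response differed by 0.31 on the log2 scale (95% interval 0.02 to 0.60, edgeR adjusted p = 0.430). For Cd274 the response in siR_Nostrill cells was larger by 0.20, with an interval from -0.23 to 0.63. That value was 0.089 without siR_Ctrl + IFN-γ replicate 2 and 0.31 without siR_Ctrl replicate 3, and ran from 0.094 with the length trend removed to 0.48 on the log2(TPM + 1) scale. For Lgals9 the difference was -0.16 (-0.47 to 0.15) and for Cd47 -0.08 (-0.45 to 0.29). For Nectin2 it was -0.28 (-0.66 to 0.10) and for Pvr 0.05 (-0.24 to 0.34). With 1 library left out, the difference ran from 0.23 to 0.36 for Cd276, from -0.21 to -0.075 for Lgals9 and from -0.36 to -0.16 for Nectin2. The intervals leave room for differences of either sign in 5 of the 6 members, so equal responses are not shown by these values.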

How the data were processed

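Sequenced RNA came from 4 groups of 3 IEC4.1 libraries, described by the study as biological triplicates. The authors filtered reads with SOAPnuke and aligned them to GRCm38.p6 with HISAT2 and Bowtie2. The sources used here do not name the counting tool. Per gene, the authors deposited an estimated count, an FPKM and a TPM value per gene, without other scaling of the estimated counts. From 90.6% to 91.6% of the counts of a library were whole, and all were rounded. The length-scaled FPKM and TPM values enter only levels and limma. Tests used edgeR 4.0.16 (quasi-likelihood, TMM scaling, filterByExpr at its defaults, 1 fit of all 12 libraries, Benjamini-Hochberg adjustment over 11900 genes, threshold 0.05) in R 4.3.3. The code was tested on simulated data. The authors named DESeq2 for their tests, and DESeq2 1.42.0 was an alternative, as were limma 3.58.1 on log2(FPKM + 1), log2(FPKM + 0.1) or log2(TPM + 1), other filters, size factors, a replicate block, removal of the length trend (lowess, span 0.3) and each library left out. The members and gene lists were chosen with earlier results of these data known. One signalling gene is not reported here. Named were all members, from each list up to 4 genes that passed for IFN-γ with siR_Ctrl and had a mean of at least 1 FPKM, and the 3 genes nearest to each member. Further list genes, in the report and the observations, were named with their values known.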

Additional observations from a re-analysis of the deposited data

How the results depend on the processing

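Cd274 kept its call for IFN-γ in every setting run. For IFN-γ in siR_Ctrl cells 3 of 6 members were called, 2 to 3 of 7 with 1 library left out (fits in which Icam1 was tested too), 4 of 7 in limma on log2(FPKM + 1) over all genes, with Icam1 added, 1 when only the groups compared were fitted or in limma on log2(TPM + 1), and 5 with the length trend removed (Pvr and Nectin2 added), when calls over all genes rose from 649 to 1322. Without siR_Ctrl replicate 3 the 3 called were Cd274, Lgals9 and Icam1 (adjusted p = 0.0356), and Cd47 was lost (0.0929). In siR_Nostrill cells 3 of 6 were called, 2 of 7 with no filter on low counts, 1 to 4 of 7 with 1 library left out (1 without siR_Nostrill replicate 3 or siR_Nostrill + IFN-γ replicate 1 or 2) and 5 with the length trend removed (Pvr and Cd276 added). Between the siRNAs without IFN-γ and for the interaction 0 members were called in every setting. With IFN-γ 0 were called, 1 with DESeq2, with a mean of at least 5 CPM or without siR_Ctrl replicate 1, and 2 with the length trend removed. The cause of these differences was not tested.

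Calls over all genes numbered 329 to 1322 in siR_Ctrl cells given IFN-γ (649 as reported), 491 to 2257 in such siR_Nostrill cells (807), 0 to 404 between the siRNAs without IFN-γ (26) and 0 to 1540 with it (51). Limma on log2(TPM + 1), chosen after seeing the data, moved the median log2 fold change of all genes by -0.15, 0.16, -0.17, 0.14 and 0.30 in the 5 comparisons, and the values below are as fitted. Of 684 values of 6 members, 631 kept direction and call, 21 lost a call, 13 gained one and 19 changed sign, none of them called. For IFN-γ in siR_Nostrill cells, Nectin2 was -0.011 in limma on FPKM with either pseudocount or over all genes, -0.036 without siR_Nostrill replicate 1 and -0.073 without siR_Nostrill + IFN-γ replicate 3, and from -0.073 to 0.056 over all libraries left out in turn. Without IFN-γ, log2(TPM + 1) gave -0.025 for Cd274, -0.018 for Cd276, -0.053 for Pvr and -0.024 for Nectin2. For the interaction, Pvr was -0.00047 without siR_Ctrl replicate 3 and -0.019 without siR_Ctrl + IFN-γ replicate 1 (-0.019 to 0.12 over all libraries left out in turn). Lgals9 was 0.16 on the TPM scale and 0.11 with the length trend removed. Cd47 was 0.00029 in limma on log2(FPKM + 1), with or without the filter, 0.23 on the TPM scale, 0.0031 with the length trend removed, 0.0063 without siR_Ctrl + IFN-γ replicate 2 and 0.021 without siR_Nostrill replicate 1 (-0.20 to 0.021 over all libraries left out in turn).

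Same-numbered libraries did not deviate alike throughout: 8 of 18 same-numbered pairs had a correlation of deviations over 0.1, from -0.66 to 0.87. These correlations hold every difference between libraries, so they cannot decide whether libraries of one number were prepared together. With the replicate number as a block, 3, 3, 0, 0 and 0 members were called in the 5 comparisons, no member's call changed, and calls over all genes were 644, 943, 18, 32 and 0. Depth limits Icam1, at 2 to 10 reads a library, and the resting level of Cd274, at 30 to 40 reads.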

Other observations

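Receptors for the members are normally found on immune cells. Of the 8 genes measured in the receptor list, 6 stayed under 1 FPKM in every library: Havcr2 (0.09 to 0.32 FPKM), Itgb2 (0.33 to 0.66), Cd80 (0.11 to 0.30), Cd96 (0 to 0.03), Pvrig (0 to 0.19) and Trem2 (0 to 0.19), the last without a settled link to a member. The other two were above that. Tigit, the lymphocyte receptor of Pvr and Nectin2, was listed at 3.63 to 7.81 FPKM in all 12 libraries, with means of 6.78 ± 1.07 FPKM in siR_Ctrl, 4.78 ± 0.83 in siR_Ctrl + IFN-γ, 4.53 ± 0.26 in siR_Nostrill and 4.69 ± 1.42 FPKM in the siR_Nostrill + IFN-γ group (each SD, n = 3). The leukocyte marker Ptprc was listed at 0 to 0.01 FPKM in the same libraries. Sirpa, the receptor of Cd47, was listed at 13.4 to 15.8 FPKM, so that RNA for both partners of that pair was present in the same culture. Tigit had a log2 fold change of -0.48 between the siRNAs without IFN-γ (unadjusted p = 0.00415, edgeR adjusted p = 0.200).

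Ulbp1, a ligand of the natural killer receptor NKG2D, spread more between libraries of one group than any difference between groups, from 4.90 to 47.1 FPKM over the 12 libraries and 25.9 ± 18.6 FPKM in siR_Ctrl cells (SD, n = 3). In no comparison did it pass (edgeR adjusted p from 0.428 to 0.842).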
